A study of Mus musculus with 11 samples.

Results

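Streptozotocin (STZ) was compared with sham injection in the offspring of protein-restricted dams, in the 6 of the series' 11 arrays that are labelled as low protein and as STZ or sham, 3 in each group. The labels alone chose these arrays, and no measured value did. All were hybridised with whole pancreas RNA of female Balb/C mice aged 30 days. The dams of both groups ate an isocaloric diet with 8% protein while pregnant and the control diet, with 20% protein, from the birth of the litter, so the restriction before birth is common to STZ and sham mice. STZ was given at 35 mg per kg body weight in sodium citrate buffer, 1 injection a day on days 1 to 5 after birth, and sham mice received the vehicle. The remaining arrays are from offspring of dams on the control diet throughout, 3 sham and 2 STZ, and serve here as the comparison. The replicates are labelled as biological. Dam and litter are not given, so mice of 1 group may share a litter, and a difference between litters cannot be told apart from a difference between groups.

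STZ is a sugar-linked alkylating agent that enters insulin-producing β cells through the glucose transporter GLUT2 and damages their DNA. Small repeated doses spare some β cells, and the neonatal rodent pancreas can form new ones. Islets are a minor part of the pancreas, most of whose RNA comes from acinar cells that make digestive enzymes, and protein restriction during gestation is used as a model of impaired β-cell growth before birth. In whole-organ RNA, fewer cells of a type and less RNA per cell cannot be told apart.

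Values are log2 signals, in which a difference of 1 is a doubling. Differences are STZ minus sham with the standard error (SE) of a linear model fitted to all 11 arrays with limma, and a gene passed where its p, adjusted for 15897 genes by the Benjamini-Hochberg method, was under 0.05. With limma 0 genes passed in low protein offspring (0%), and the smallest adjusted p was 1. At an unadjusted p under 0.05 there were 412 genes (2.59%), of which 108 were higher (0.679%) and 304 were lower (1.91%) after STZ. Fits of rescaled values gave another split, with 162 higher and 250 lower genes after cyclic loess scaling and 170 higher and 269 lower genes after quantile normalization. None of the genes described below passed over all genes, so every difference is given as a value. No gene differed by more than 2-fold, 19 of the 15897 differed by more than 1.5-fold, and the median size over all genes was 0.07.

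The 6 arrays were not equally alike. Their pairwise correlations were 0.9932 to 0.9946 among sham arrays and 0.9828 to 0.9921 among STZ arrays, the lowest being that of STZ 1 with STZ 3. Along the first principal component of the 6 arrays (44.9% of the variance) STZ 1 and STZ 3 lay at the ends and the sham arrays between them. The SD over all probe sets was 1.52 on STZ 1, the lowest of the 11 arrays, against 1.57 on STZ 2, 1.62 on STZ 3 and 1.58 to 1.60 on the sham arrays. The signal of the hybridisation controls averaged 10.63 on STZ 1, 10.83 on STZ 2, 11.13 on STZ 3 and 10.92 to 11.24 on the sham arrays. Gapdh, whose 3′ minus 5′ signal reflects RNA integrity, gave 1.32 to 1.85 on STZ and 1.13 to 1.68 on sham arrays. The part of array quality in the results was not tested. The pancreatic label was borne out by the acinar digestive enzymes, whose 18 tested genes averaged 14.65 to 15.16 per array. Lists of intestinal epithelium (12 genes, 8.39 to 8.46) and of red blood cells (5 genes, 8.67 to 8.79) moved little between arrays, and detection calls were not used here.

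Islet hormones varied widely between sham mice, and of the 7 tested Ins2 alone had an unadjusted p under 0.05. Ins2, which encodes insulin, had a log2 signal of 14.47, 13.91 and 13.27 on the 3 sham arrays and of 12.89, 13.57 and 12.93 on the 3 STZ arrays. STZ 1 and STZ 3 were below every sham array, while STZ 2 lay above sham 3, so the groups overlap. The difference was -0.75 ± 0.28 SE, a 1.68-fold lower level (95% confidence interval -1.36 to -0.14, n = 3 per group, limma adjusted p = 1). The Ins2 difference is -0.46 without sham 1, -1.06 without sham 3 and -0.32 with array weights. An exact two-sided permutation test of the 6 Ins2 values gave p = 0.2, where 0.1 is the smallest that 3 against 3 can give. Mice have a second insulin gene, Ins1, which has no one-gene probe set and was not analysed here, and the Ins2 probe set may also bind Ins1 transcripts.

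Iapp encodes amylin, the peptide that β cells release with insulin. Its signal was 13.69, 12.72 and 12.04 on sham and 12.15, 12.76 and 12.51 on STZ arrays, a difference of -0.34 ± 0.34. The STZ values lie within the sham range, and without sham 1 the difference is 0.10. G6pc2, the islet catalytic subunit of glucose-6-phosphatase, was measured at 7.45, 7.42 and 6.80 on sham and 7.18, 7.11 and 7.02 on STZ arrays (-0.12 ± 0.29), again with all STZ values inside the sham range.

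The hormones of the other islet cells differed in both directions. Gcg, the glucagon gene of α cells, had signals of 13.65, 12.34 and 11.48 on sham and 12.94, 12.85 and 13.20 on STZ arrays (0.50 ± 0.41). Sst, the somatostatin gene of δ cells, was at 10.02, 9.34 and 9.06 on sham and 9.85, 9.63 and 9.65 on STZ arrays (0.23 ± 0.23). For both, the 3 STZ mice clustered inside the wider sham range. Without sham 3 the Gcg and Sst differences are 0.0004 and 0.02, and without sham 1 they are 1.08 and 0.51. Ppy, pancreatic polypeptide, gave 9.26, 8.61 and 8.40 on sham and 8.74, 8.52 and 8.59 on STZ arrays (-0.14 ± 0.22). Pyy, a related peptide found in islet cells, differed by -0.01 ± 0.30 and Ghrl, the ghrelin gene, by 0.13 ± 0.08. Sham 1 had the highest value of all 6 arrays for Ins2, Iapp, Gcg, Sst, Ppy and Pyy, and sham 3 the lowest sham value for the same 6 genes.

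**Figure D1:**
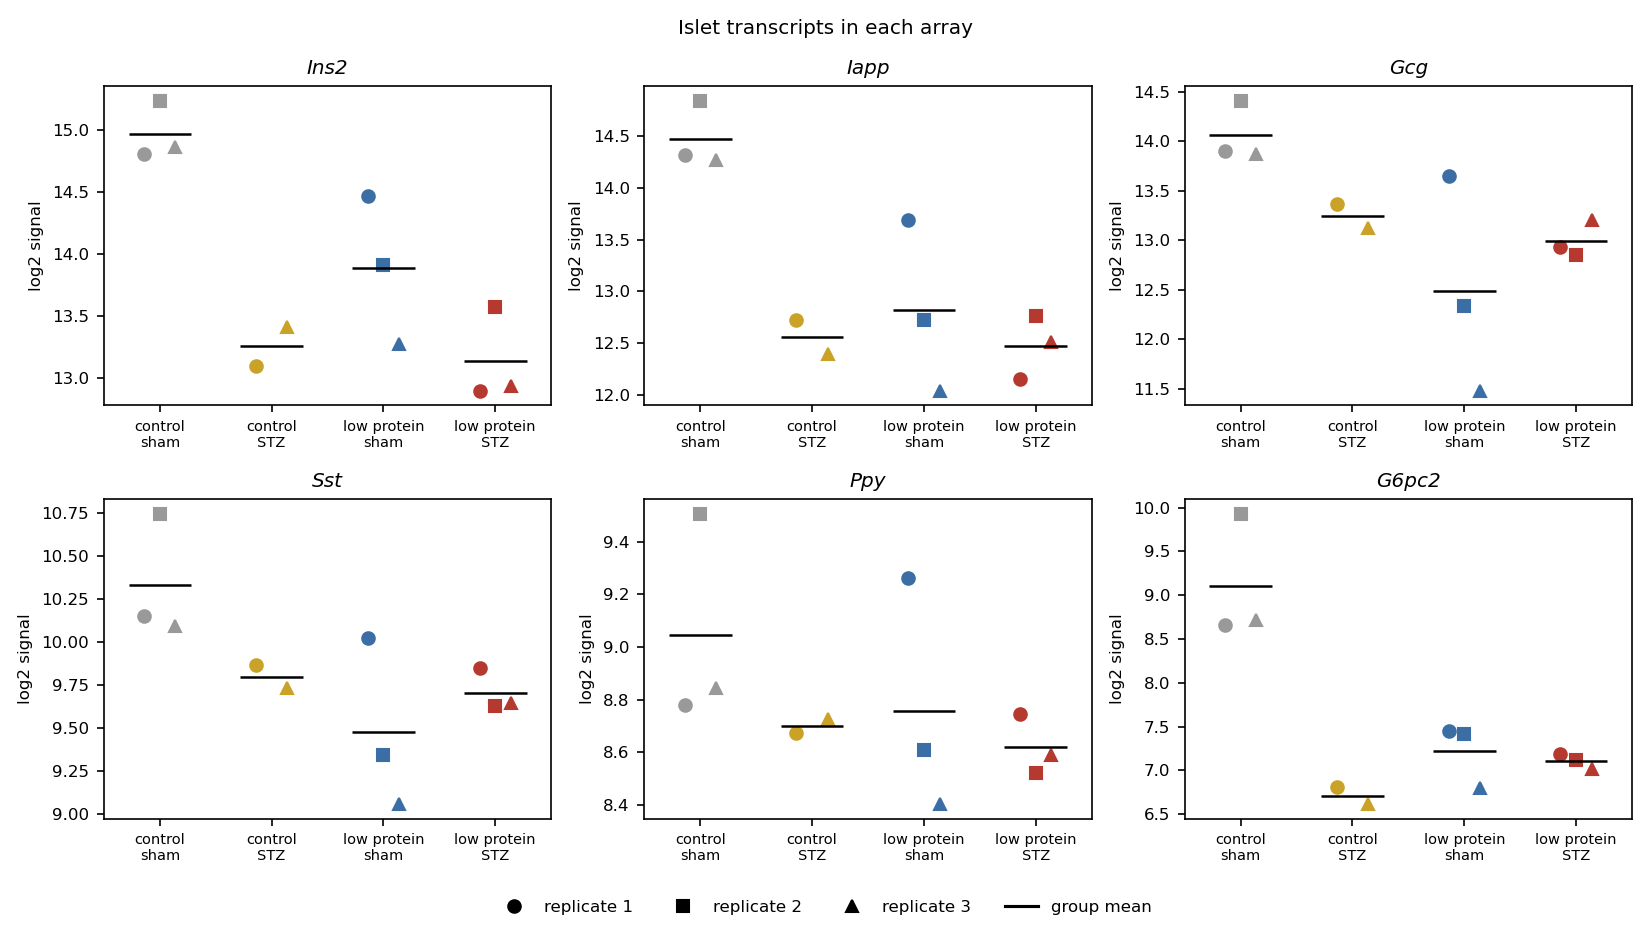
Log2 signal of 6 islet transcripts (vertical axes) in each of the 11 arrays, grouped by maternal diet and injection (horizontal axes), with marker shape giving the replicate number and a line the group mean. In low protein offspring Ins2 ran from 13.27 to 14.47 on sham and from 12.89 to 13.57 on STZ arrays, and the G6pc2 values of STZ arrays lay within those of sham arrays.

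Genes with which β cells sense glucose and release insulin had no shared shift. Of the 14 tested, 8 were higher and 6 lower after STZ, their median was 0.03 beside -0.02 for all genes, and 0 had an unadjusted p under 0.05. Cltrn (collectrin, a regulator of insulin exocytosis) was at 7.94, 7.34 and 6.98 on sham and 7.68, 7.74 and 7.63 on STZ arrays (0.26 ± 0.25), and Sytl4 (granuphilin, which docks insulin granules) differed by -0.16 ± 0.11. The 14 islet transcription factors were split 7 and 7 with a median of -0.01. Nkx2-2, a homeodomain factor required for β-cell formation, had 7.42, 7.29 and 7.36 on sham and 7.13, 7.20 and 7.29 on STZ arrays (-0.15 ± 0.07), the groups meeting at 7.29. Nkx6-1, which keeps β-cell identity, differed by -0.16 ± 0.10, and STZ 3 alone, at 7.92, lay apart from the other 5 arrays (8.27 to 8.38). Of 15 granins and prohormone-processing genes 12 were lower, with a median of -0.06. Without sham 1 that median is 0.04 and 4 of the 15 are lower. Chga, which encodes chromogranin A of neuroendocrine granules, was at 9.05, 8.20 and 8.23 on sham and 8.36, 8.24 and 8.17 on STZ arrays (-0.23 ± 0.21), and without sham 1 its difference is 0.04.

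Among the genes that differed most for their error, the higher ones differed by less than 1.5-fold. Ltc4s, the synthase of the inflammatory lipid leukotriene C4, had the smallest unadjusted p of the higher genes, with 9.16, 9.21 and 9.14 on sham and 9.42, 9.50 and 9.44 on STZ arrays (0.28 ± 0.06). S100a4, a calcium-binding protein of fibroblasts and leukocytes, was at 6.89, 7.17 and 6.97 on sham and 7.24, 7.41 and 7.48 on STZ arrays (0.37 ± 0.09). In each of these genes every STZ array lay above every sham array, as it did in 413 genes of those tested (2.6%).

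Phf20, a reader of histone methylation in an acetyltransferase complex, had 8.44, 8.66 and 8.30 on sham and 8.88, 8.87 and 8.998 on STZ arrays (0.45 ± 0.10). Its 5 probe sets ranged from -0.12 to 0.45, so they disagree. Oga, the enzyme that removes O-linked N-acetylglucosamine from proteins, was at 10.84, 10.46 and 10.78 on sham and 11.15, 11.01 and 11.13 on STZ arrays (0.40 ± 0.12), and its 6 probe sets ranged from -0.10 to 0.40. Npas3, a transcription factor of the bHLH-PAS family, differed by 0.46 ± 0.14 with 2 of 4 probe sets higher, and Asxl2, a Polycomb-associated chromatin protein, by 0.27 ± 0.08 with 3 of 5 higher. Dlg2, a synaptic scaffold protein, differed by 0.27 ± 0.07 with all 3 probe sets higher. AW011738 (0.28 ± 0.08), Zyg11b (0.30 ± 0.08, 1 of 3 probe sets higher) and Tmem150c (0.26 ± 0.08, 1 of 2 higher) complete the 10 higher genes with the smallest p. By size among genes at an unadjusted p under 0.05, Pvr, the poliovirus receptor CD155, came first at 0.51 ± 0.23, which rests on STZ 1 at 10.66 beside 9.77 and 9.60 on the other STZ arrays and 9.41 to 9.61 on sham arrays.

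The largest differences were found among the lower genes. Clk1, a kinase that phosphorylates SR splicing factors, had 9.07, 8.58 and 8.57 on sham and 8.10, 7.68 and 8.10 on STZ arrays, a 1.72-fold lower level (-0.78 ± 0.20, 95% confidence interval -1.24 to -0.33, limma adjusted p = 1). Rbm39, an SR-like splicing factor, was at 9.52, 9.25 and 9.14 on sham and 9.04, 8.89 and 8.82 on STZ arrays (-0.39 ± 0.10), and 11 of its 12 probe sets were lower. In neither gene did the groups overlap, which holds for 817 genes lower in all STZ arrays (5.14%).

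Other lower genes had small spreads within each group. Ap1g2, a subunit of the AP-1 clathrin adaptor, had 8.72, 8.82 and 8.77 on sham and 8.55, 8.48 and 8.38 on STZ arrays (-0.30 ± 0.07). Rab26, a small GTPase of secretory granules in acinar cells, was at 9.66, 9.55 and 9.75 on sham and 9.40, 9.37 and 9.35 on STZ arrays (-0.28 ± 0.07). Hook2, a microtubule linker of organelles, differed by -0.37 ± 0.10, and Commd6, a regulator of NF-κB and endosomal sorting, by -0.43 ± 0.11. The 3 sham values of Commd6 were 8.41, 8.39 and 8.40, and its STZ values were 7.89, 8.02 and 8.01, which leaves a clear gap between the groups. Nagk, the kinase of N-acetylglucosamine, differed by -0.37 ± 0.10 with 1 of 2 probe sets lower, Abhd14b by -0.46 ± 0.12, AI413582 by -0.38 ± 0.09 and Gm32031 by -0.30 ± 0.07.

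Of the lower genes with large differences and an unadjusted p under 0.05, C730049O14Rik and Rnf125 rested in part on 1 mouse. C730049O14Rik (-0.83 ± 0.34) had 8.97, 8.55 and 9.99 on sham and 8.55, 8.09 and 8.40 on STZ arrays. Rnf125, a ubiquitin ligase that restrains antiviral signalling (-0.76 ± 0.31), had 8.62, 8.45 and 9.89 on sham and 8.32, 8.20 and 8.15 on STZ arrays, so sham 3 is high in both. Sostdc1, a secreted antagonist of BMP and Wnt signals, showed no such outlying mouse, with 10.49, 10.54 and 10.80 on sham and 10.09, 9.85 and 10.00 on STZ arrays (-0.63 ± 0.26). Mettl7a1, a methyltransferase of lipid droplets, was at 9.48, 9.86 and 9.65 on sham and 9.004, 8.96 and 9.15 on STZ arrays (-0.63 ± 0.19, 2 of 3 probe sets lower).

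**Figure D2:**
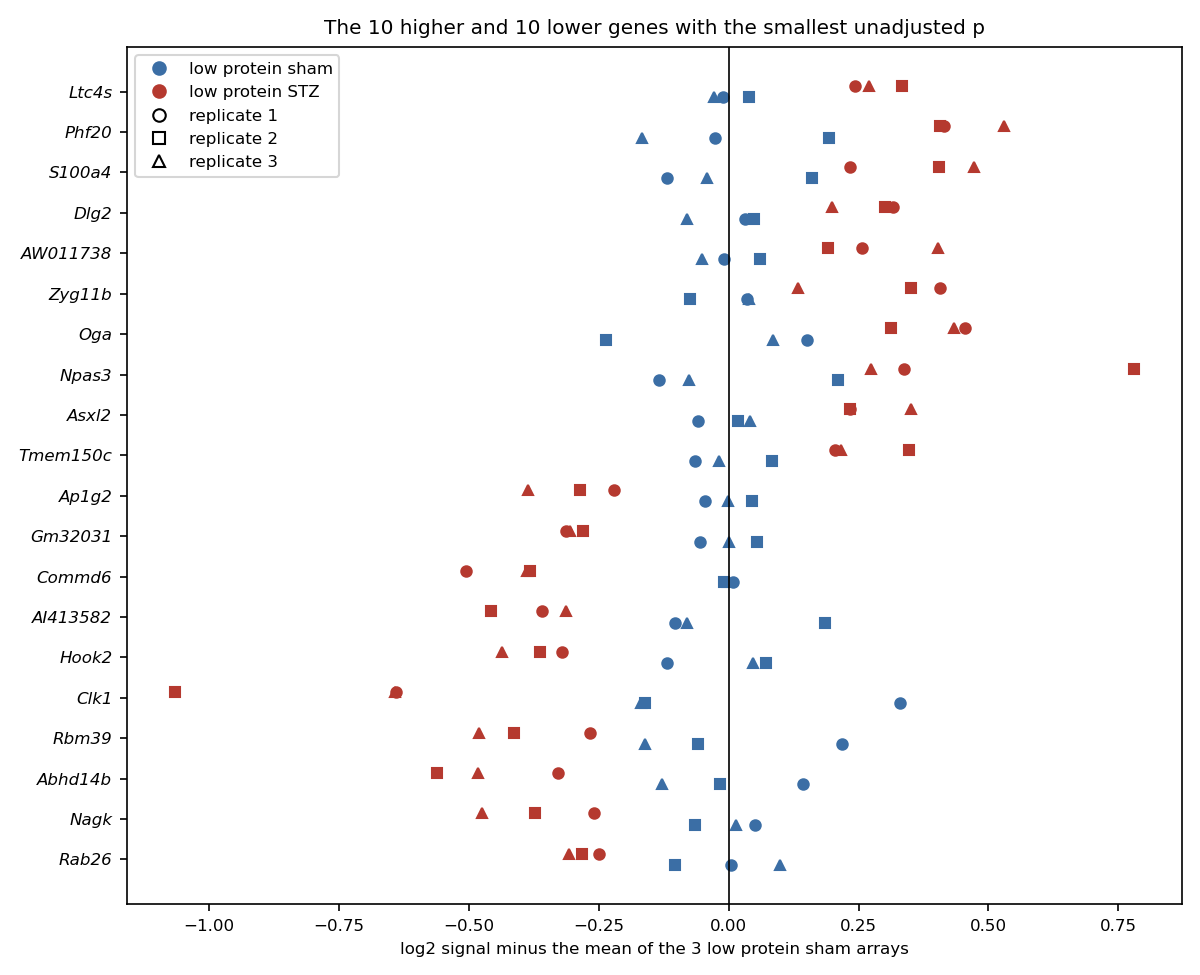
The 10 higher and the 10 lower genes with the smallest unadjusted p, as log2 signal of each low protein array minus the mean of the 3 sham arrays (horizontal axis), with sham arrays in blue, STZ arrays in red and marker shape giving the replicate. The STZ points lie on 1 side of the sham points in these genes, and Clk1 has the group difference farthest from 0, at -0.78.

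Genes of the respiratory chain, which transfers electrons in the inner mitochondrial membrane and drives ATP synthesis, were lower as groups by small amounts. Of 33 complex I genes all were lower, with a median of -0.23 (range -0.38 to -0.05) beside -0.02 for all genes, of which 9160 of 15897 were lower. Of 24 genes of complexes II to IV 22 were lower (median -0.19), and of 17 ATP synthase genes 16 (median -0.20). Unadjusted p under 0.05 was found for 2 of 33, 2 of 24 and 0 of 17, all lower, beside 1.91% of all genes, and the medians in control offspring were -0.01, -0.04 and -0.08. The complex I mean was 10.94, 10.77 and 10.75 on sham and 10.27, 10.80 and 10.68 on STZ arrays, so STZ 1 was the lowest array and STZ 2 lay within the sham range. Without STZ 1 the medians are -0.08, -0.05 and -0.02, and 25, 15 and 10 genes are lower. After cyclic loess scaling they are -0.14, -0.09 and -0.08, with 32, 17 and 14 genes lower.

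Ndufb2, an accessory subunit of complex I, had 11.18, 10.96 and 10.93 on sham and 10.34, 11.04 and 10.56 on STZ arrays (-0.38 ± 0.15). Ndufb3, another accessory subunit, differed by -0.25 ± 0.10, Ndufb6 by -0.36 ± 0.17 and Ndufs4 by -0.26 ± 0.13. Of their probe sets, 2 of 3 were lower for Ndufb2 and 2 of 4 for Ndufs4. STZ 2 reached the sham range in Ndufb2 and Ndufb3, so the groups overlap. Uqcr10, a small subunit of complex III, was at 12.19, 11.91 and 11.94 on sham and 11.53, 11.88 and 11.84 on STZ arrays (-0.27 ± 0.11), the groups being apart by a narrow margin. Cox6c, a subunit of cytochrome c oxidase, differed by -0.34 ± 0.14, Cox7a2l, a supercomplex assembly factor, by -0.22 ± 0.11 and Cox6b1 by -0.24 ± 0.13. Of ATP synthase, Atp5l differed by -0.35 ± 0.17 and Atp5g2, an isoform of subunit c, by -0.27 ± 0.14. For Atp5g2 2 of 3 probe sets were lower.

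Mitochondrial ribosomal proteins, which translate the few proteins encoded in mitochondrial DNA, were lower in 67 of the 74 tested, with a median of -0.15, and 10 (13.5%) were lower with an unadjusted p under 0.05, beside 1.91% of all genes. All 3 STZ arrays were below all sham arrays in 9 of the 74, beside 5.14% of all genes. Without STZ 1 the median is -0.07, 61 of 74 are lower and 5 have an unadjusted p under 0.05; without STZ 3 the median is -0.16. The list mean was 9.33, 9.32 and 9.25 on sham and 9.05, 9.23 and 9.22 on STZ arrays, each STZ array below each sham array. In control offspring the median was -0.04.

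Among its members, Mrps35 of the small subunit had 8.91, 9.13 and 8.90 on sham and 8.79, 8.74 and 8.58 on STZ arrays (-0.28 ± 0.09). Mrps18c, also of the small subunit, was at 9.24, 9.32 and 9.20 on sham and 9.01, 9.08 and 8.999 on STZ arrays (-0.22 ± 0.07). Mrpl14, of the large subunit, was at 9.77, 9.49 and 9.58 on sham and 9.41, 9.31 and 9.37 on STZ arrays (-0.25 ± 0.09). In these 3 genes no STZ value reached a sham value. Mrps26 had 9.26, 9.32 and 9.11 on sham and 8.78, 9.07 and 9.02 on STZ arrays (-0.27 ± 0.10), with 1 of its 2 probe sets lower.

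**Figure D3:**
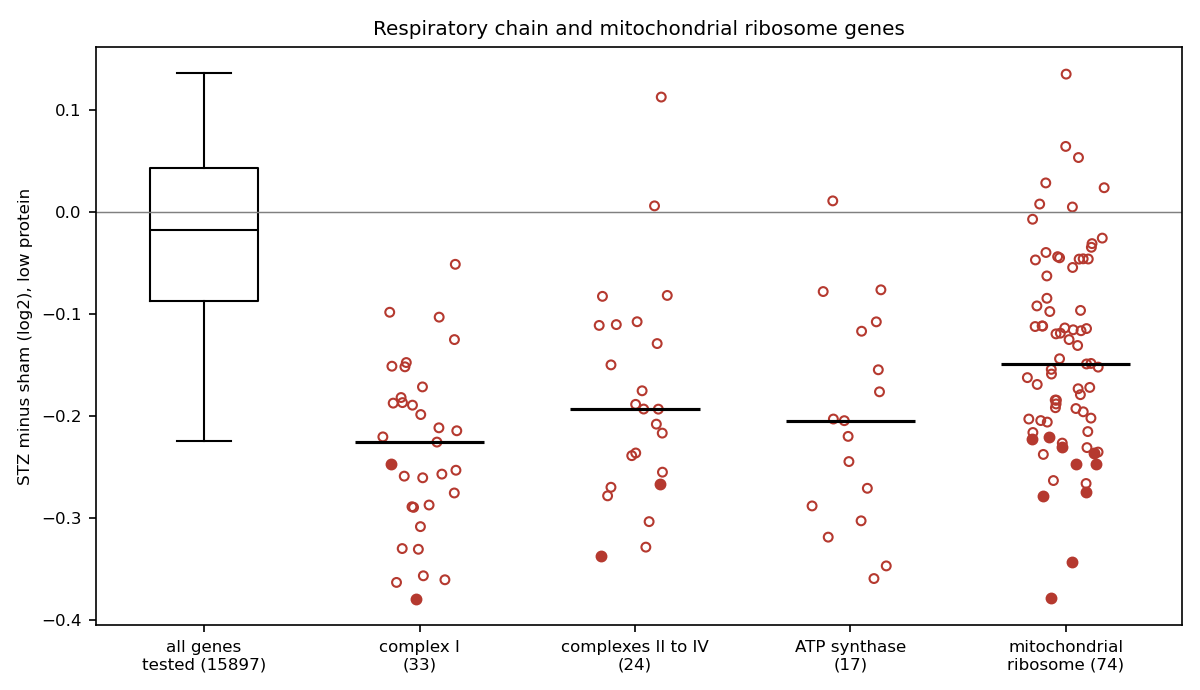
STZ minus sham difference (log2, vertical axis) of each tested gene of complex I, complexes II to IV, ATP synthase and the mitochondrial ribosome, with filled points for an unadjusted p under 0.05, lines at the list medians and, at left, the box and whiskers of all 15897 genes (percentiles 5, 25, 50, 75 and 95). The medians are -0.23, -0.19, -0.20 and -0.15, and 10 of 74 mitochondrial ribosomal genes are filled.

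The promoters of 3 of the lower mitochondrial ribosomal genes are shown because the genes differed in the same direction and because nuclear genes for mitochondrial proteins often carry sites of NRF1 and ETS factors. The windows run from 250 bases before to 50 bases after a transcript start in the RefSeq promoter table (mouse build GRCm38.p6, plus strand), which for Mrpl14 is not the first base of the gene's RefSeq record. Capitals mark matches on either strand to CCGGAAG, the core of ETS sites, and to GCGCNTGCG, most of the NRF1 site.
Mrps18c, chr5:100798509-100798808: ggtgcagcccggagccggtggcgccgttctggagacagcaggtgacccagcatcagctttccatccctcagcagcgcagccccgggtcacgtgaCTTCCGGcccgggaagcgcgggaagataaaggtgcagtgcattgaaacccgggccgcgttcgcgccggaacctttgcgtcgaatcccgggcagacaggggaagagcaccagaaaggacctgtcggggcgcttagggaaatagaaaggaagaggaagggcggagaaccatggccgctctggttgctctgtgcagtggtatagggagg
Mrpl14, chr17:45686099-45686398: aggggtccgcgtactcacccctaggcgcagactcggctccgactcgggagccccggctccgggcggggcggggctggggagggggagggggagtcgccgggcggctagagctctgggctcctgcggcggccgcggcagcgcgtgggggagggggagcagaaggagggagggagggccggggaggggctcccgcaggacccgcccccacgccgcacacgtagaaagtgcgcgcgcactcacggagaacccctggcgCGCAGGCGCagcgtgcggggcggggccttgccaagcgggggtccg
Mrps26, chr2:130563507-130563806: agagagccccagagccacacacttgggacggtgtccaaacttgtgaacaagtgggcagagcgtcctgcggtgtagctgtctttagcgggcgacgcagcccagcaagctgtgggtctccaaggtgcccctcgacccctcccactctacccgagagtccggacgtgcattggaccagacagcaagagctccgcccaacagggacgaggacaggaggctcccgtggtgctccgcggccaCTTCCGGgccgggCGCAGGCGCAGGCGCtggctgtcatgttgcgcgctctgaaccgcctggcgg
The Mrps18c window holds 1 CCGGAAG match, the Mrpl14 window 1 GCGCNTGCG match, and the Mrps26 window 1 of the former and 2 overlapping ones of the latter. In the shares below a gene counts as a match where any of its windows holds the motif. CCGGAAG was found for 23 of 65 mitochondrial ribosomal genes (35.4%) and for 15.9% of 12674 tested genes. GCGCNTGCG was found for 16 of the 65 (24.6%) and for 12.3% of the tested genes. Among the respiratory chain lists the share with CCGGAAG was 13.3% of 30 complex I genes, 43.8% of 16 genes of complexes II to IV and 37.5% of 16 ATP synthase genes. The share with GCGCNTGCG was 20.0%, 43.8% and 62.5%. These matches describe the letters of the windows and were not related to the measured differences.

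Cytosolic ribosomal proteins, the protein part of the ribosomes that make secreted enzymes, were lower in 37 of 42 genes with a median of -0.13, and 0 had an unadjusted p under 0.05. Without STZ 1 the median is 0.08, and after cyclic loess scaling it is 0.04, so their direction is not settled. Rpl27, of the large subunit, had 13.30, 13.30 and 13.23 on sham and 12.55, 13.20 and 13.09 on STZ arrays (-0.33 ± 0.16). The proteasome, which degrades ubiquitinated proteins, had a median of -0.06 over 31 genes and 0.08 without STZ 1.

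Acinar digestive enzymes were lower by a small amount in all 18 genes tested (median -0.09), and the direction depended on STZ 1 and on the scaling. Ctrb1, chymotrypsinogen B, had 15.42, 15.38 and 15.36 on sham and 15.005, 15.37 and 15.45 on STZ arrays (-0.11 ± 0.10), so STZ 3 was the highest and STZ 1 the lowest array. Cela2a (elastase) differed by -0.11 ± 0.10, Ctrl (a chymotrypsin-like protease) by -0.10 ± 0.10 and Prss2 (trypsinogen) by -0.07 ± 0.09, with the same order of arrays at the ends. The list median is 0.05 without STZ 1 and 0.17, with 0 of 18 lower, after cyclic loess scaling.

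Acinar transcription factors and secretory genes were lower in 14 of 17 (median -0.11, 0.05 after cyclic loess scaling), 3 with an unadjusted p under 0.05 (17.6%, beside 1.91% of all genes). Vamp8, the fusion protein of zymogen granules, had 11.76, 11.93 and 11.68 on sham and 11.34, 11.55 and 11.52 on STZ arrays (-0.32 ± 0.12), with no overlap. Gata4, a zinc-finger factor of pancreas development, was at 9.79, 9.58 and 9.68 on sham and 9.09, 9.27 and 9.63 on STZ arrays (-0.35 ± 0.15). Gata6, its paralog, was at 9.12, 8.94 and 8.94 on sham and 8.50, 8.60 and 8.98 on STZ arrays (-0.31 ± 0.13, 2 of 3 probe sets lower). In both GATA genes STZ 3 stayed within the sham range, and without STZ 1 the list median is 0.04 with 0 of 17 lower at an unadjusted p under 0.05. Reg proteins are secreted lectins linked to islet regrowth and pancreatitis, and their list also holds Clu (clusterin), which is not a Reg protein. This list had a median of -0.11 over 9 genes, of 0.05 after cyclic loess scaling and of -0.01 without STZ 1. Reg2 was at 11.17, 11.55 and 10.99 on sham and 10.94, 10.85 and 10.88 on STZ arrays (-0.35 ± 0.17), below sham in every STZ array.

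The unfolded protein response, through which the endoplasmic reticulum adjusts its chaperones to secretory load, separated the STZ mice from each other rather than from sham mice. Over 24 genes the list mean was 11.83, 11.46 and 11.66 on sham and 11.14, 11.76 and 12.08 on STZ arrays, so the lowest and the highest of the 6 arrays were both STZ. The median difference was -0.02, 0.11 after cyclic loess scaling, 0.25 without STZ 1 and -0.22 without STZ 3, and 0 genes had an unadjusted p under 0.05. Hspa5, the main chaperone of that compartment, had 13.64, 13.09 and 13.26 on sham and 12.61, 13.61 and 14.07 on STZ arrays (0.10 ± 0.32). Hsp90b1, another chaperone there, had 13.42, 12.81 and 13.01 on sham and 12.48, 13.77 and 14.07 on STZ arrays (0.36 ± 0.39). Syvn1, the ubiquitin ligase that clears misfolded proteins, differed by -0.37 ± 0.21.

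Genes of the ATF4 response to amino acid shortage had the same arrays at both ends, with a list mean of 10.71, 10.11 and 10.49 on sham and 10.02, 10.52 and 10.81 on STZ arrays, and a median difference of 0.05 over 19 genes. That median is 0.26 without STZ 1 and -0.15, with 16 of 19 genes lower, without STZ 3, and -0.09 without sham 2. Nupr1, a stress protein of the injured pancreas, stood apart from it, at 14.42, 14.21 and 14.31 on sham and 13.82, 13.54 and 13.80 on STZ arrays (-0.59 ± 0.19, limma adjusted p = 1). Every STZ mouse was below every sham mouse for Nupr1, with both of its probe sets lower, and the difference is -0.37 after cyclic loess scaling. Its difference in control offspring was -0.08 ± 0.22. Control sham arrays ran from 14.12 to 14.96 for Nupr1, wider than its low protein difference.

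**Figure D4:**
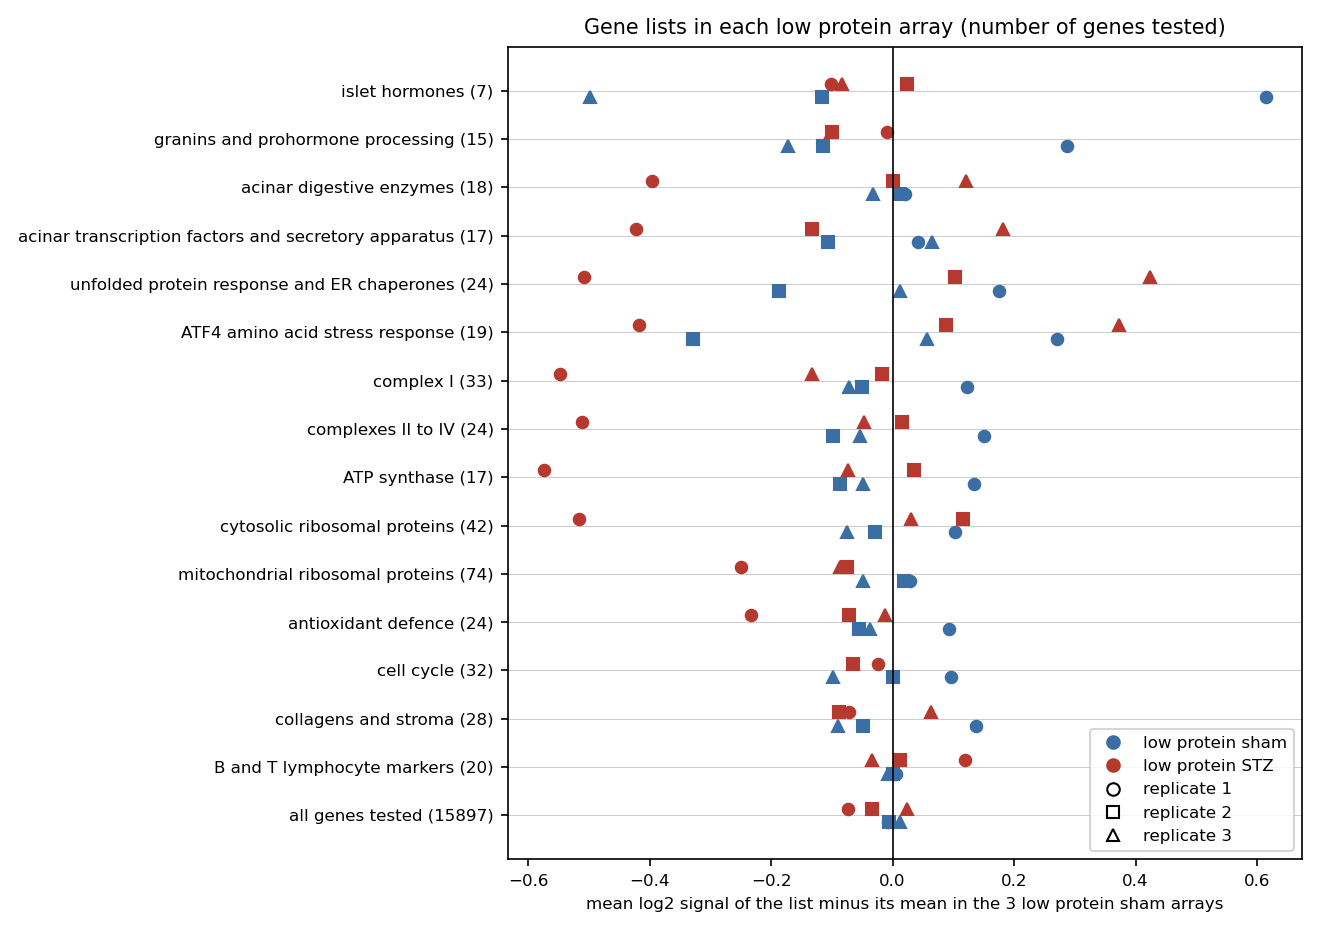
Mean log2 signal of 15 gene lists and of all genes tested in each low protein array, minus the mean of the 3 sham arrays (horizontal axis), with sham arrays in blue, STZ arrays in red and marker shape giving the replicate. STZ 1 is the lowest array for the acinar, ribosomal and respiratory chain lists, and the unfolded protein response runs from STZ 1 (11.14) to STZ 3 (12.08).

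DNA repair genes that act on alkylated bases, the lesion STZ leaves, had a median of -0.01 over 16 genes, with 2 lower at an unadjusted p under 0.05 (12.5%, beside 1.91% of all genes). Parp2, which senses DNA breaks, was at 8.60, 8.47 and 8.62 on sham and 8.46, 8.20 and 8.29 on STZ arrays (-0.25 ± 0.09). Alkbh3, which removes methyl groups from DNA bases, was at 8.70, 8.72 and 8.55 on sham and 8.44, 8.47 and 8.08 on STZ arrays (-0.33 ± 0.14). STZ arrays lay below sham arrays in both genes. Polb, the gap-filling polymerase, differed by -0.20 ± 0.10. Of 17 genes of p53 targets and apoptosis regulators 10 were lower (median -0.03) and 0 had an unadjusted p under 0.05, and of 32 cell cycle genes 17 were lower (median -0.05), again with 0. Antioxidant genes had a median of -0.14 over 24, and -0.03 without STZ 1. Gpx4, which reduces lipid peroxides, differed by -0.23 ± 0.14 and Nfe2l2, the factor that induces antioxidant genes, by 0.23 ± 0.14. For Nfe2l2 1 of 2 probe sets was higher.

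Macrophage and myeloid markers, phagocytes of the innate immune system, had a median of -0.02 over 20 genes, B and T lymphocyte markers 0.05 over 20, endothelial markers 0.02 over 19, collagens and stroma 0.00 over 28, duct markers -0.02 over 11 and neural and Schwann cell markers -0.05 over 10. The lymphocyte list mean was 8.43 to 8.44 on sham and 8.40 to 8.55 on STZ arrays, with STZ 1 highest, and the median is -0.02 without STZ 1. Btla, an inhibitory receptor of lymphocytes, was the member with an unadjusted p under 0.05, at 7.94, 7.95 and 8.02 on sham and 8.23, 8.10 and 8.11 on STZ arrays (0.18 ± 0.07). Tyrobp, a signalling adaptor of myeloid cells, was at 8.88, 8.92 and 8.94 on sham and 9.05, 9.15 and 8.99 on STZ arrays (0.15 ± 0.07).

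Among 17 interferon-response genes (median 0.04), Ifit1, which blocks translation of viral RNA, was at 6.62, 7.05 and 6.83 on sham and 7.09, 7.20 and 7.22 on STZ arrays (0.34 ± 0.11). All STZ values of Ifit1 were above the sham values. Adipocyte markers were lower in 10 of 11 genes (median -0.11). Lipe, hormone-sensitive lipase, was at 8.14, 7.95 and 8.23 on sham and 8.02, 7.85 and 7.65 on STZ arrays (-0.27 ± 0.11), with overlap. Igf1, a growth factor of islets and many tissues, was at 10.39, 10.50 and 10.60 on sham and 10.06, 10.28 and 10.33 on STZ arrays (-0.27 ± 0.13), with 2 of its 4 probe sets lower. Over all 32 lists 25 medians were below 0 and 7 above, from -0.23 for complex I to 0.05 for the ATF4 list, and 20 were below 0 without STZ 1. After cyclic loess scaling 16 of the 32 were below 0, and after quantile normalization 18.

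The STZ difference in low protein offspring was set against that in control offspring, which share no arrays with it. The difference between them passed for 0 genes with limma (0%), and 566 genes had an unadjusted p under 0.05 (3.56%), 214 higher (1.35%) and 352 lower (2.21%). Of the 108 genes higher in low protein offspring at an unadjusted p under 0.05, 45 (41.7%) were higher in control offspring too, beside 50.7% of all genes. Of the 304 lower genes 164 (53.9%) were lower there, beside 49.3%. An unadjusted p under 0.05 in control offspring was reached by 9 of the 108 and 19 of the 304, and by 4.05% of all genes, 1.92% as higher and 2.13% as lower. The direction was the same in both diets for 4 of the 9, for 14 of the 19 and for 303 of the 644 among all genes.

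For the genes already described the values are given side by side. Ins2 differed by -0.75 ± 0.28 in low protein and -1.72 ± 0.31 in control offspring, a difference of differences of 0.97 ± 0.42. For Iapp these were -0.34 ± 0.34 and -1.92 ± 0.38 (1.58 ± 0.52), and for G6pc2 -0.12 ± 0.29 and -2.39 ± 0.33 (2.28 ± 0.44, limma adjusted p = 1). Control STZ arrays number 2, and the test of the difference passed for none of the 3 genes. Low protein sham minus control sham was -1.09 ± 0.28 for Ins2, -1.66 ± 0.34 for Iapp and -1.88 ± 0.29 for G6pc2, so the low protein sham level was the lower. Mean STZ signals of these genes were 13.13, 12.48 and 7.11 in low protein and 13.25, 12.56 and 6.71 in control offspring. Low protein G6pc2 signals (6.80 to 7.45) were close to the limit for dim genes, 6.866. Clk1 differed by -0.78 ± 0.20 and -0.44 ± 0.23, lower in both diets. Commd6 (-0.43 ± 0.11 and 0.00 ± 0.12), Ltc4s (0.28 ± 0.06 and 0.05 ± 0.07), Mettl7a1 (-0.63 ± 0.19 and -0.01 ± 0.21) and Sostdc1 (-0.63 ± 0.26 and -0.07 ± 0.29) were near 0 in control offspring. They were named for their low protein values, and the control medians of the 108 higher and 304 lower genes were -0.02 and -0.01. The 2 control STZ values of Commd6, 8.77 and 8.32, lay on opposite sides of its control sham values (8.49 to 8.64). Control sham arrays ran from 10.13 to 11.30 for Sostdc1 and from 9.22 to 10.07 for Mettl7a1, wider than their low protein differences. The difference of differences was -0.56 ± 0.38 for Sostdc1 and -0.62 ± 0.29 for Mettl7a1. In the control STZ arrays Vamp8 differed by 0.10 ± 0.13 and Gata4 by 0.23 ± 0.17.

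**Figure D5:**
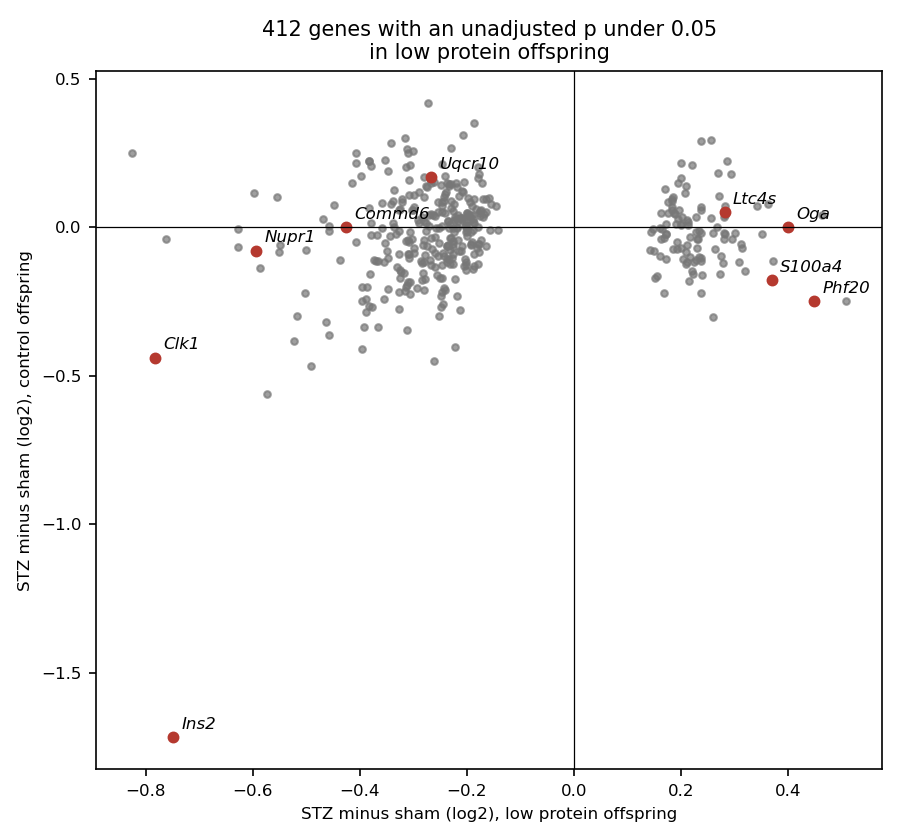
STZ minus sham difference (log2) in low protein offspring (horizontal axis) against that in control offspring (vertical axis) for the 412 genes with an unadjusted p under 0.05 in low protein offspring, each point a gene and 9 of them named. Of the 108 genes to the right of 0, 45 lie above the horizontal line, and of the 304 to the left 164 lie under it.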

How the data were processed

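Values are the log2 signals per probe set of Affymetrix mouse arrays as the authors deposited them. RMA and Partek 6.5 are named in the submitters' processing notes, with no role or order. Genome build and statistical test: not given in the sources used here. Gene names came from GEO's annotation of the platform. Of 45101 probe sets, 34958 had 1 gene symbol, 932 several and 9211 none. The last 2 kinds were left out. Entrez IDs of 34754 matched RefSeq, and 0 symbols were updated. For each of 18194 genes the brightest probe set, by its mean of all arrays, was kept. Dim genes, with a mean of 6.866 or less (the 0.25 quantile over probe sets), numbered 2297 and were left untested.

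One model with 4 group means over 11 arrays was fitted in R 4.3.3 by limma 3.58.1 (lmFit, then eBayes; two-sided; Benjamini-Hochberg over 15897 genes, threshold 0.05) and tested on simulated data. Tables used Python 3.11.15. The number of arrays limits the precision. Members, lists and the rule for named genes were chosen with earlier results of these data known. Named were Ins2, Iapp, Gcg, Sst, Ppy and G6pc2. Also named, in each direction, were the 10 genes with the smallest p and the 6 with the largest difference at an unadjusted p under 0.05. Each list described gave at most 4 members by smallest p. The acinar digestive enzyme and unfolded protein response lists also gave 2 each by highest mean. Not every gene the rule gives is printed. Alternatives were only the 2 low protein groups, a replicate block, trend and robust moderation, array weights, cyclic loess, no filter, every probe set, each array left out and, added after seeing the data, quantile normalization.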

Additional observations from a re-analysis of the deposited data

Results flagged for a closer look

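In 5 of the 112 genes named, every STZ array lay on 1 side of every sham array in low protein offspring and on the opposite side in control offspring. The rule for named genes favours a small p in low protein arrays. The share of all tested genes with such a pattern was not counted, so the 5 cannot be set against it. The difference of the STZ differences (low protein minus control) was tested with limma and passed for none of them (adjusted p = 1). It was 0.70 ± 0.16 for Phf20, 0.55 ± 0.14 for S100a4, -0.43 ± 0.16 for Uqcr10, -0.17 ± 0.11 for Bbc3, a p53-induced promoter of apoptosis, and 0.27 ± 0.10 for Tyrobp. Phf20 was at 8.85, 8.84 and 8.59 on control sham and 8.52 and 8.49 on control STZ arrays, and S100a4 at 7.33, 7.40 and 7.46 on control sham and 7.20 and 7.24 on control STZ arrays. Uqcr10 was at 12.09, 12.19 and 12.08 on control sham and 12.32 and 12.25 on control STZ arrays. Bbc3 was at 8.93, 8.72 and 8.72 on low protein sham and 8.61, 8.71 and 8.72 on low protein STZ arrays, so its groups nearly touch.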

How the results depend on the processing

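Under every alternative run, limma called 0 genes for STZ against sham in low protein offspring and 0 for the difference between diets. Genes at an unadjusted p under 0.05 numbered 412, and 434 with the replicate block (481 beside 566 for the difference between diets). The numbers were not taken to pair the mice, since deviations of same-numbered sham and STZ arrays correlated at -0.116, 0.027 and 0.181. Array weights gave 2144 (smallest adjusted p 0.192) and 1013 for the difference, and every one-gene probe set 859 of 34958 and 1284 for the difference. Leaving out 1 array gave 252 (without low protein sham 1) to 997 (without low protein STZ 3), and 406 (without control STZ 1) to 852 (without control sham 1) for the difference.

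Of 2128 values of 112 named genes under the alternatives, 2102 kept their direction and 26, of 13 genes, turned it. Many of these values could not turn. Fitting only the 2 low protein groups, the replicate block, trend and robust moderation, no filter and every probe set leave the estimates unchanged. Leaving out a control array does not alter them either, so the number kept overstates how far direction was tried. With array weights Iapp was 0.0365, Pyy 0.26, Clu 0.0013 and Rpl41 0.0076. Cyclic loess scaling gave Pyy 0.0396, Klk1 0.10, Cela2a 0.17, Ctrb1 0.17, Ctrl 0.18, Prss2 0.20, Clu 0.0828, P4hb 0.15 and Rpl41 0.0244, and quantile normalization gave Pyy 0.0628. Leave-one-out values ran from -0.73 to 0.10 for Iapp, -0.32 to 0.11 for Ppy, -0.23 to 0.36 for Pyy, -0.38 to 0.0445 for Chga, -0.19 to 0.0275 for Cela2a, -0.19 to 0.0279 for Ctrb1, -0.19 to 0.0284 for Ctrl, -0.15 to 0.0447 for Prss2, -0.30 to 0.20 for P4hb and -0.22 to 0.51 for Hspa5. Under the settings that fix the estimates the list medians could not move either. Of 522 list medians 30, of 14 lists, moved by more than the spread between replicates. The cause was not tested.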

Other observations

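The relation of Ins2 to the other hormones within a mouse was set out after the values had been seen. Ins2 minus Gcg was 0.82, 1.57 and 1.79 on sham and -0.04, 0.72 and -0.27 on STZ arrays, without overlap (difference -1.25, exact two-sided permutation p = 0.1, the smallest that 3 against 3 can give). Ins2 minus Sst was 4.45, 4.56 and 4.21 on sham and 3.04, 3.95 and 3.29 on STZ arrays (difference -0.98, exact permutation p = 0.1). Against Iapp, Ppy and Chga the differences were -0.41, -0.61 and -0.52, each with an exact permutation p of 0.2. These 5 ratios share Ins2, and the p-values are not adjusted.

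The metallothioneins, zinc- and copper-binding proteins, were also picked after their values were seen. Mt1 was at 14.27, 14.25 and 14.04 on low protein sham and 13.51, 13.27 and 13.20 on low protein STZ arrays (-0.86 ± 0.47), without overlap. In control sham arrays Mt1 ran from 12.92 to 15.28, wider than that difference. Mt2 was at 14.04, 13.49 and 13.49 on sham and 13.20, 12.91 and 12.41 on STZ arrays (-0.84 ± 0.62). Hnrnpdl, an RNA-binding protein that takes part in splicing, was picked in the same way. It was at 10.33, 10.14 and 9.89 on sham and 9.86, 9.62 and 9.70 on STZ arrays (-0.40 ± 0.15). In control offspring it differed by -0.41 ± 0.17. Among others looked at with it, Luc7l2 differed by -0.88 ± 0.46 in low protein and -0.94 ± 0.51 in control offspring. For Hnrnpa1 these were -0.55 ± 0.20 and -0.06 ± 0.23, and for Hnrnph3 -0.17 ± 0.08 and 0.04 ± 0.085.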
